A study of Mus musculus with 12 samples.

Results

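The 10 genes followed here through the mouse cochlea mark the cells of small blood vessels. They are 7 genes of endothelial cells (Pecam1, Kdr, Tek, Tie1, Cldn5, Emcn and Slc2a1) and 3 genes of pericytes (Pdgfrb, Rgs5 and Cspg4), taken by name from a table of 37432 genes, and all 10 passed the filter that left 16215 genes for testing. RNA was sequenced at postnatal day 14 from 3 turns of the cochlea (apical, middle and basal), in wild-type males and in males homozygous for 35delG, a deletion of a single base in Gjb2 that truncates the gap junction protein connexin 26. With 2 repeats for each of 6 groups, there are 12 libraries. The homozygous mice came from male embryonic stem cells put into tetraploid embryos, were born by cesarean section and grew up with ICR foster mothers on a background that is almost C57BL/6J, whereas age-matched wild-type males were bought in. Genotype and origin of the mice therefore cannot be told apart. The study calls its repeats biological. The labels do not say which libraries came from the same animals, so the p-values measure the spread between these libraries. Values are FPKM, the fragments on a transcript for its length and for the size of the library, divided by 1 factor per library (0.917 to 1.06), so levels can be compared between genes as well as between libraries. The depth of the libraries is unknown, and 13729 to 14703 genes reached 1 FPKM in each.

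Blood vessels of the cochlea feed the spiral ligament, the spiral ganglion and the stria vascularis, whose capillaries form a tight barrier between blood and ear and are closely covered by pericytes. Endothelial cells respond to VEGF through the receptor tyrosine kinase Kdr and to angiopoietins through Tek, while Tie1, the partner of Tek, has no established ligand of its own. Pericytes are held to the vessel by PDGF-B, which endothelial cells secrete and the pericyte receptor Pdgfrb binds. Several of these genes are also used outside vessels: Pecam1 by platelets and leukocytes, Pdgfrb by fibroblasts and Cspg4 by precursors of oligodendrocytes. In bulk tissue, fewer cells of a type and less RNA per cell cannot be told apart.

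The genes differed widely in level. Averaged over the 12 libraries, Emcn stood highest at 57.4 scaled FPKM, followed by Rgs5 at 37.9, Slc2a1 at 35.4, Pdgfrb at 18.5, Cldn5 at 16.3, Pecam1 at 7.39, Tek at 6.98, Kdr at 4.94, Tie1 at 2.98 and Cspg4 at 1.83. Neighbours in this order overlapped in their ranges over the libraries. Emcn also varied most, by 15.4-fold between its lowest and its highest library, and Pdgfrb varied least, by 1.71-fold.

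The level of Gjb2 itself was not taken as a check of the genotype labels, since reads from a transcript that lacks a single base are still counted. Its scaled FPKM was 248 and 254 in the wild-type apical turn, 140 and 268 in the middle and 434 and 256 in the basal turn. In homozygous libraries it was 332 and 376, 256 and 451, and 126 and 58.6 in the same order. Both homozygous libraries lay above wild-type in the apex and below it in the base, and the middle turn overlapped. The basal difference (log2 fold change -1.94, SE 0.47, n = 2 against 2, limma adjusted p = 0.0238) did not reach the call used here, an adjusted p under 0.01 together with a fold change over 2.

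**Figure D1:**
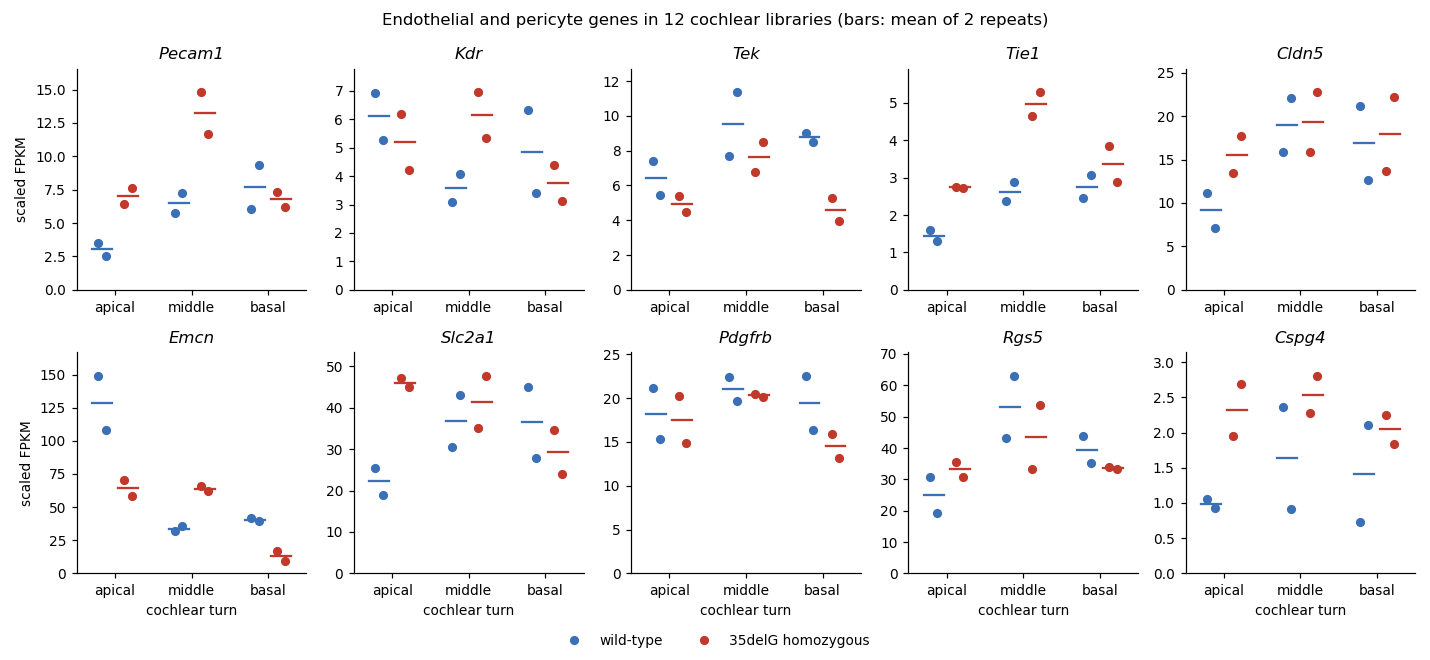
Scaled FPKM of the 10 genes in each library (points) by cochlear turn, with the mean of 2 repeats as a bar and each y axis linear from 0. Emcn falls from 149 and 108 in the wild-type apical turn to 16.8 and 9.67 in the homozygous basal turn, while Pdgfrb stays between 13.2 and 22.6 throughout.

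Of the 10 genes, only Emcn was called in any comparison of genotypes. Emcn encodes endomucin, a sialomucin on the surface of capillary and venous endothelium. The gene lies on chromosome 3 from 137341067 to 137432185, plus strand (mm10, GRCm38). In the basal turn it fell from 41.9 and 39.1 scaled FPKM in wild-type to 16.8 and 9.67 in homozygous libraries. The groups did not overlap, and the log2 fold change was -1.59 (SE 0.25, n = 2 against 2, limma adjusted p = 0.0074). In that turn 4.29% of all tested genes were called in either direction, against 1 of these 10, and the direction of Emcn was the same under all 26 alternatives, of which 12 kept the call. The call was kept without wild-type basal repeat 2 or homozygous basal repeat 1, and lost without any of the other 10 libraries, with adjusted p up to 0.0329.

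The apical and middle turns gave Emcn opposite directions, without calls. In the apical turn it was 149 and 108 in wild-type, against 70.7 and 58.5 in homozygous libraries (log2 fold change -0.97, SE 0.25, n = 2 against 2, limma adjusted p = 0.117). The middle turn had 31.8 and 35.7 in wild-type against 65.6 and 61.9 in homozygous libraries (log2 fold change 0.90, SE 0.25, n = 2 against 2, limma adjusted p = 0.0747). Both homozygous libraries lay below wild-type in the apex and above it in the middle turn. Neuronal genes were high in the wild-type middle turn and the homozygous base (sums of 2400 to 3087 and 4095 to 4101). In the wild-type base and the homozygous middle turn they summed to 42.6 to 976 and 82.3 to 574. Schwann cell genes had the same order, and the part of either in the course of Emcn was not tested. The genotype effect on Emcn itself differed between the basal and the middle turn by -2.49 on the log2 scale (SE 0.36, limma adjusted p = 0.00328). Among the 10 genes it was the only difference of the effect between turns that was called, where 8.91% of all genes were called. Without wild-type middle repeat 1, wild-type middle repeat 2 or homozygous middle repeat 2 it was not called, with adjusted p up to 0.0136.

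Along the cochlea, Emcn was highest in the apex of wild-type mice. It was lower in the wild-type middle turn (log2 fold change -1.88, SE 0.25, n = 2 against 2, limma adjusted p = 0.0205) and basal turn (-1.62, SE 0.25, limma adjusted p = 0.0317) than in the apex, which missed the threshold of 0.01. Homozygous mice held nearly the same level in the apex and the middle turn, and from there Emcn fell by 2.25 (apical to basal, SE 0.25, n = 2 against 2, limma adjusted p = 0.00451) and by 2.23 (middle to basal, SE 0.25, limma adjusted p = 0.00373) on the log2 scale. These were the only calls among the 10 genes between turns, where 4.06% and 4.66% of all genes were called. Both calls were lost without wild-type apical repeat 1 or 2 or homozygous basal repeat 2, the former also without either homozygous apical and the latter without either homozygous middle repeat, with adjusted p up to 0.0432 and 0.0176.

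The sequence before the start of Emcn is shown because only Emcn of the 10 genes was called. That of Tek is shown because Tek moved apart from its partner Tie1. RefSeq (GRCm38.p6) had an upstream sequence for 8 of the 10 genes, all but Pecam1 and Pdgfrb. The 250 bases before the RefSeq start of Emcn, plus strand, chr3:137340828-137341077, and of Tek, plus strand, chr4:94739039-94739288, read 5′ to 3′, with the letters AGGAAG or CTTCCT, a core of sites for ETS factors on either strand, in capitals:
Emcn: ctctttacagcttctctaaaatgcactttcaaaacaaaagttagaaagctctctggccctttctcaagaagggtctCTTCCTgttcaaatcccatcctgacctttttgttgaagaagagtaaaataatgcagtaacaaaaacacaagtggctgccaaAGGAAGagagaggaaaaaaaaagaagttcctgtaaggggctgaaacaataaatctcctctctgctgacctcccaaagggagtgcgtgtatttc
Tek: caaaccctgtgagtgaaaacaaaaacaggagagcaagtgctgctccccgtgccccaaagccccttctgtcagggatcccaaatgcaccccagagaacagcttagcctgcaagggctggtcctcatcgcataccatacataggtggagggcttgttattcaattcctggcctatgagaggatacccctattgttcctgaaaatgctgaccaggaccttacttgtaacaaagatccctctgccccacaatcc
The core was found at 2 places before Emcn, in 1 place before Tie1 and not in these letters before Tek, Kdr, Cldn5, Slc2a1, Rgs5 or Cspg4. It occurs in 29.5% of 32851 RefSeq upstream sequences of this length, so a match is a description only. GGGCGG or CCGCCC, the GC box, stood before Kdr, Cldn5, Slc2a1 and Cspg4 (32.7% of all). TTATCT or AGATAA stood before Rgs5 alone (9.99% of all), and TATAAA or TTTATA before none of the 8 (12.4% of all).

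Pecam1 and Tie1 moved together, and not with Emcn. Pecam1 encodes an adhesion molecule of endothelial junctions. Over the 12 libraries, which share tissue and genotype groups, the log2 values of Pecam1 and Tie1 had a Pearson r of 0.939 (Spearman 0.902), whereas Pecam1 and Emcn had -0.262 (Spearman -0.147). In the apical turn Pecam1 was 3.52 and 2.55 scaled FPKM in wild-type, against 6.46 and 7.60 in homozygous libraries (log2 fold change 0.999, SE 0.23, n = 2 against 2, limma adjusted p = 0.0931). The middle turn had 5.78 and 7.29 in wild-type against 14.8 and 11.7 (log2 fold change 0.92, SE 0.23, n = 2 against 2, limma adjusted p = 0.0619). In the basal turn the genotypes overlapped, at 6.04 and 9.36 in wild-type, against 7.35 and 6.19 in homozygous libraries (log2 fold change -0.14, SE 0.23, limma adjusted p = 0.723). Pecam1 was thus higher in both homozygous libraries of the apex and of the middle turn, without a call.

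Tie1, at a lower level, was also higher in both homozygous libraries of the apex and of the middle turn. It was 1.59 and 1.30 scaled FPKM in the wild-type apex and 2.76 and 2.72 in the homozygous apex (log2 fold change 0.61, SE 0.18, n = 2 against 2, limma adjusted p = 0.16). In the middle turn it was 2.37 and 2.88 in wild-type against 4.64 and 5.28 (log2 fold change 0.72, SE 0.18, limma adjusted p = 0.0619), and in the basal turn 2.46 and 3.06 against 3.84 and 2.87 (log2 fold change 0.21, SE 0.18, limma adjusted p = 0.481). The homozygous libraries were separate from wild-type in the apex and middle turn and overlapped it in the base. Averaged over the 3 turns, Tie1 was higher by 0.51 (SE 0.11, limma adjusted p = 0.0457) and Pecam1 by 0.59 (SE 0.14, limma adjusted p = 0.0607), and neither was called. In that average 0 of the 10 genes were called, against 0.376% of all genes, and 5 had an unadjusted limma p under 0.05, against 18.6% of all genes.

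Tek went the other way. It lies on chromosome 4 from 94739289 to 94874976, plus strand, and Tie1 on the same chromosome from 118471191 to 118490061, minus strand. In the apex it was 7.39 and 5.46 scaled FPKM in wild-type, against 5.37 and 4.47 in homozygous libraries (log2 fold change -0.32, SE 0.23, n = 2 against 2, limma adjusted p = 0.534). Its middle turn values were 7.70 and 11.4 in wild-type against 6.80 and 8.48 (log2 fold change -0.27, SE 0.23, limma adjusted p = 0.5), and in the base 9.04 and 8.49 against 5.30 and 3.93 (log2 fold change -0.81, SE 0.23, limma adjusted p = 0.0409). Both homozygous libraries were below both wild-type libraries in the apex and in the base, without a call. The ratio of Tek to Tie1, a comparison chosen after the values were seen, is given with no test. It lay between 2.78 and 4.66 in the 6 wild-type libraries (median 3.81). In the 6 homozygous libraries it lay between 1.37 and 1.94 (median 1.54). How many other pairs of genes separate the genotypes in this way was not counted.

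**Figure D2:**
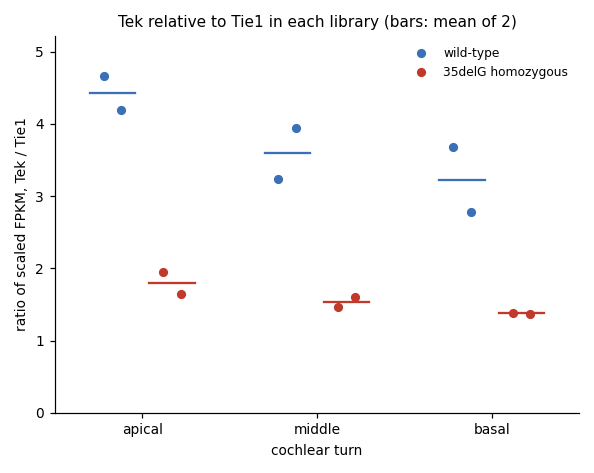
Ratio of the scaled FPKM of Tek to that of Tie1 in each library (points) by cochlear turn, with the mean of 2 repeats as a bar and the y axis from 0. All 6 homozygous libraries, at most 1.94, sit below all 6 wild-type libraries, at least 2.78. The ratio was chosen after the values were seen. Neither gene separated the genotypes alone, and the share of other gene pairs that do so was not counted.

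The other pan-endothelial genes gave a common scale for these shifts. The list held 28 genes, of which 26 were tested, among them Cdh5 (VE-cadherin), Egfl7, Esam and Flt1. The difference of a gene's log2 value from the mean log2 value of the list was 0.90 ± 0.18 for Tek in wild-type and 0.08 ± 0.17 in homozygous libraries (SD, n = 6 each). All 6 homozygous libraries were below all 6 wild-type libraries on this scale, from -0.16 to 0.32 against 0.67 to 1.16, which held for 1.86% of all tested genes and, among the 10 genes, for Tek only. The reverse, all 6 homozygous libraries above, held for 0.117% of all genes and none of the 10. By its own log2 values, without the list, Tek did not separate the 6 homozygous from the 6 wild-type libraries. Tie1 kept the narrowest distance from the list, over a range of 0.45, and Emcn the widest, over 4.20.

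Pecam1 and Tie1 followed the mean of these other pan-endothelial genes, and Emcn did not. Pearson r over the 12 libraries was 0.979 for Pecam1 (0.953 without the 2 libraries farthest from the median of the list) and 0.960 for Tie1 (0.962), against 0.193 for Tek (0.101), 0.005 for Kdr (-0.221) and -0.295 for Emcn (-0.253). Emcn instead followed the list of supporting cells, the epithelial cells around the hair cells, at 0.928 (0.819), and that of hair cells at 0.911 (0.813). These correlations describe libraries that share their groups and carry no test.

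**Figure D3:**
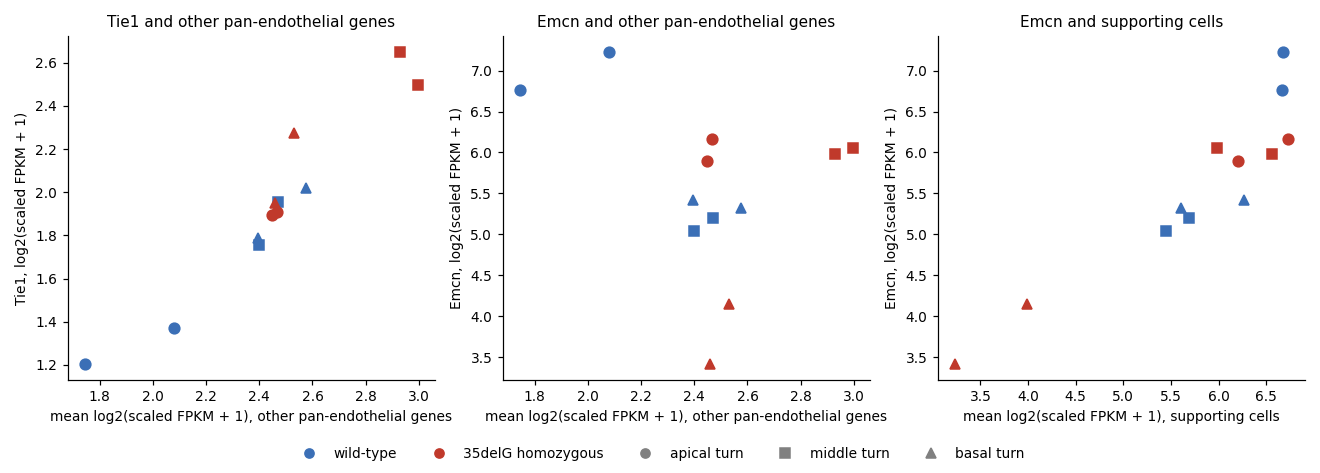
Each point is a library, on log2(scaled FPKM + 1) axes that do not start at 0, with Tie1 against the mean of 26 other pan-endothelial genes (left), Emcn against the same mean (middle) and Emcn against the mean of 8 supporting cell genes (right). Tie1 rises with the endothelial mean (r = 0.960), and Emcn rises with the supporting cell mean (r = 0.928) and not with the endothelial mean (r = -0.295).

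In the basal turn, where Emcn was called lower, all 8 supporting cell genes were also lower in homozygous libraries (median log2 fold change -1.61), and Otoa and Otog were called. Otoa and Otog encode otoancorin and otogelin, which anchor the gels over the sensory epithelium, and both were near 0 there (means of 0.769 and 0.0899 scaled FPKM, against 112 and 19.8 in wild-type). The summed level of the list was 749 to 1395 in the wild-type base and 262 to 394 in the homozygous base, 1546 to 1668 and 1862 to 2339 (wild-type, then homozygous) in the apex, and 640 to 936 and 1238 to 1848 in the middle turn. Of 8 hair cell genes, 7 were lower in the homozygous base (median log2 fold change -2.36), with Otof, Pou4f3 and Gfi1 called. The hair cell sums were 126 to 302 in the wild-type base and 327 to 853 in the homozygous base, where the sum is carried by Pvalb. Of 12 fibroblast genes, 11 were lower in the homozygous base, where they summed to 1944 to 2090, against 5121 to 5377 in wild-type. Their part in the fall of Emcn was not tested. By contrast, 13 of 26 other pan-endothelial genes were higher in the homozygous base and their median was 0.00, with none called. Venous genes did not share this contrast. Their median log2 fold change in the base was -0.67, with 1 of those tested higher and none called. They summed to 755.5 to 975.7 in the homozygous base, against 1495 to 1691 in wild-type. The part of venous endothelium in the fall of Emcn was not tested.

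Single genes whose course was most like that of Emcn, looked up after its values were seen, were Adgrd1, Arrdc4, Cavin2, Bhmt2 and Lmo7, at Pearson r of 0.960 to 0.972 over the 12 libraries. Those most like Tie1 were Pecam1, Esam, Ets1, Cd38 and Egfl7, at 0.862 to 0.939. Ets1 was also nearest to Pecam1, at 0.961. For the mean course of Pecam1, Kdr, Tek, Tie1, Cldn5 and Emcn, each centred and scaled, the nearest of 9458 genes outside the list were Serpine2, Serpinf1, Xaf1, Fli1 and Chil1, at 0.837 to 0.914.

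Kdr varied by 2.25-fold, from 3.09 to 6.95 scaled FPKM. Its wild-type values were 6.92 and 5.28 in the apex, 3.09 and 4.08 in the middle turn and 6.32 and 3.41 in the base, and its homozygous values were 6.20 and 4.21, 6.95 and 5.33, and 4.37 and 3.12. Only in the middle turn were the genotypes separate, with both homozygous libraries higher (log2 fold change 0.64, SE 0.29, n = 2 against 2, limma adjusted p = 0.213). With Emcn, Kdr had an r of 0.708 (Spearman 0.748), and with the supporting cell list 0.652.

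Cldn5 and Slc2a1 belong to the blood-tissue barrier. Cldn5 encodes claudin 5, the main sealing protein of endothelial tight junctions in the barrier, and Slc2a1 the glucose transporter GLUT1. Cldn5 was 11.2 and 7.07 scaled FPKM in the wild-type apex, 15.8 and 22.1 in the middle turn and 21.2 and 12.7 in the base. In homozygous libraries it was 13.5 and 17.7, 15.9 and 22.7, and 13.7 and 22.2 in turn. Only the apex was without overlap (log2 fold change 0.73, SE 0.34, n = 2 against 2, limma adjusted p = 0.34). Slc2a1 was 25.5 and 18.9 in the wild-type apex and 47.2 and 44.9 in the homozygous apex (log2 fold change 1.03, SE 0.30, n = 2 against 2, limma adjusted p = 0.149). Middle turn values were 30.5 and 43.1 in wild-type against 35.0 and 47.7, and in the base 45.1 and 27.8 against 34.7 and 24.0, with overlap in both. Antisense genes Gm12867 and Gm12868 overlap Slc2a1 in the annotation, and whether the counting used strand is not given in the sources used here. The mean of erythroid genes, which share cells with Slc2a1 in blood, had an r of 0.294 with it over the 12 libraries (Spearman 0.266). Erythroid genes summed to 233 to 496 in the wild-type apex and 282 to 1168 in the homozygous apex. There 7 of 7 tested genes were higher (1 of 7 without homozygous apical repeat 2). In the base, where Slc2a1 overlapped, they summed to 3180 to 4994 in wild-type against 436 to 524. Their part was not tested.

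Over the 12 libraries the mean of 25 other barrier genes had a Pearson r of 0.549 with Slc2a1 (Spearman 0.678, and r of 0.662 without the 2 libraries farthest from the median of the list) and of 0.456 with Cldn5. Of these 25, 12 were higher in the homozygous apex (median log2 fold change -0.13), 14 in the middle turn (0.05) and 10 in the base (-0.24). In the wild-type base the 25 genes summed to 1006 to 1135 scaled FPKM, against 166 to 175 for the 28 other pan-endothelial genes. Which cells held these transcripts was not tested. Over all tested genes, 4.29% were called in the base. In the base Slco1c1, a transporter of thyroid hormone and organic anions, was called lower (means of 48.1 scaled FPKM against 172 in wild-type, log2 fold change -1.80, SE 0.26, n = 2 against 2, limma adjusted p = 0.00546), and Spock2, a proteoglycan, was called higher (166 against 53.3 in wild-type, log2 fold change 1.62, SE 0.18, limma adjusted p = 0.00317).

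The 3 pericyte genes had no call in any comparison. Pdgfrb was 21.1 and 15.3 scaled FPKM in the wild-type apex, 22.5 and 19.7 in the middle turn and 22.6 and 16.3 in the base, and in homozygous libraries 20.2 and 14.9, 20.5 and 20.2, and 16.0 and 13.2. It overlapped between genotypes in the apex and middle turn, and in the base both homozygous libraries were slightly lower (log2 fold change -0.38, SE 0.22, n = 2 against 2, limma adjusted p = 0.283). Rgs5, a regulator of G-protein signalling that is abundant in pericytes, was 30.6 and 19.3 in the wild-type apex, 43.0 and 63.1 in the middle turn and 43.9 and 35.1 in the base. Its homozygous values were 35.7 and 30.6, 33.2 and 53.6, and 33.9 and 33.3, separate from wild-type in the apex (higher) and base (lower) with log2 fold changes of 0.43 (SE 0.29, limma adjusted p = 0.519) and -0.22 (SE 0.29, limma adjusted p = 0.658).

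Cspg4, the NG2 proteoglycan, was near the filter of 1 FPKM. In wild-type it was 1.06 and 0.92 scaled FPKM in the apex, 2.37 and 0.92 in the middle turn and 0.72 and 2.10 in the base, and in homozygous libraries 1.96 and 2.68, 2.27 and 2.81, and 2.26 and 1.84. The homozygous values thus lay within a narrower band than the wild-type values, and only the apex was without overlap (log2 fold change 0.73, SE 0.34, n = 2 against 2, limma adjusted p = 0.326). The mean of other pericyte genes had a Pearson r of 0.733 with Cspg4, 0.264 with Rgs5 and 0.0977 with Pdgfrb. Cspg4 also had an r of 0.796 with the mean of arterial genes and of 0.735 with that of strial genes. Osteoblast and osteocyte genes, whose mean followed Cspg4 (r = 0.803) and Pecam1 (r = 0.835), were all higher in the homozygous apex (10 of 10, median log2 fold change 1.72). There they summed to 1463 to 2787, against 996 to 1049 in wild-type. Without homozygous apical repeat 2 that median was 1.06, and their part was not tested. For the mean course of the 3 pericyte genes the nearest genes were Eln, A2m, Prom1, Epas1 and 4931406P16Rik, at Pearson r of 0.790 to 0.861. That mean stands for no common course of the 3 genes. Their pairs had an r of -0.199 (Pdgfrb and Cspg4), 0.067 (Rgs5 and Cspg4) and 0.512 (Pdgfrb and Rgs5). Rgs5 and Cldn5, of different cells, had an r of 0.801 (Spearman 0.587).

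Of 20 other pericyte genes tested, 12 were higher in the homozygous apex (median log2 fold change 0.10), 16 in the middle turn (0.25) and 8 in the base (-0.29). The middle median was 0.60 without wild-type middle repeat 1, and the basal one -0.13 without wild-type basal repeat 2. Calls in the base stand beside 4.29% of all tested genes, and which cells held the called transcripts was not tested. Heyl, a target of Notch signalling, was the only one called between genotypes, lower in the base (means of 3.22 scaled FPKM against 15.0 in wild-type, log2 fold change -2.01, SE 0.34, n = 2 against 2, limma adjusted p = 0.00822). Among 10 tested smooth muscle genes, 4, 7 and 5 were higher in the apex, middle turn and base, and Mylk, the kinase of myosin light chain, was called lower in the base (log2 fold change -1.28, SE 0.19, limma adjusted p = 0.00661).

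The ligands and receptors around Kdr, Tek and Pdgfrb gave a single call between genotypes, in the base, where 4.29% of all tested genes were called. Of 18 tested, 11 were higher in the homozygous apex (median log2 fold change 0.07), 13 in the middle turn (0.33) and 8 in the base (-0.04). Pdgfd, a ligand of Pdgfrb, was called lower in the base (means of 7.12 scaled FPKM against 21.9 in wild-type, log2 fold change -1.51, SE 0.18, n = 2 against 2, limma adjusted p = 0.0035). Vegfa, the ligand of Kdr, and Pdgfb were not called in any turn. Mean Vegfa was 23.8 in homozygous against 12.2 in wild-type samples in the apex (limma adjusted p = 0.19), 27.5 against 13.3 in the middle turn (0.095) and 19.5 against 19.2 in the base (0.962). Mean Pdgfb, in the same order, was 2.98 against 1.01 in the apex (limma adjusted p = 0.0475), 3.77 against 2.29 in the middle turn (0.11) and 2.78 against 2.93 in the base (0.855). Angpt1 and Angpt2, the ligands of Tek, had adjusted p of 0.071 or more.

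**Figure D4:**
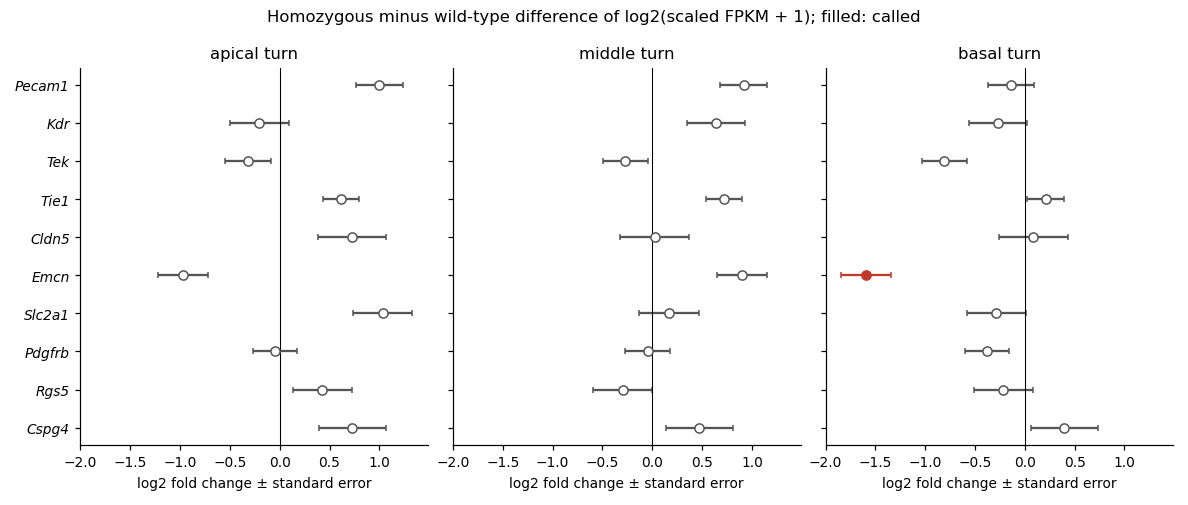
Difference of log2(scaled FPKM + 1), homozygous minus wild-type, for the 10 genes in each turn (points) with its standard error from limma (bars), filled where called. Emcn in the basal turn (-1.59) is the single filled point, and Pecam1, Tie1, Slc2a1 and Cspg4 sit to the right of 0 in the apical turn.

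Counted together, 6 of the 10 genes were higher in the homozygous apex, 7 in the middle turn and 3 in the base. In the apex 0 of 10 were called by limma, against 0.179% of all genes, and 4 had an unadjusted p under 0.05, against 16.4% of all genes. In the middle turn 0 of 10 were called, against 0.179% again, and 3 had an unadjusted limma p under 0.05, against 25.4%. The median log2 fold change of the 10 genes was 0.52, 0.32 and -0.25 in the apex, middle turn and base, beside -0.03, 0.04 and -0.02 over all genes tested. Among the other pan-endothelial genes 23 of 26 were higher in the apex (median 0.56) and 25 of 26 in the middle turn (0.50), with none called. Without wild-type apical repeat 2 the apical median was 0.37. Cdh5 was not part of this shift, with homozygous means of 8.52 against wild-type means of 8.72 scaled FPKM in the apex, 13.2 against 12.7 in the middle turn and 18.7 against 17.6 in the base.

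Leukocyte genes moved with Pecam1, which leukocytes also express, at an r of 0.810 over the 12 libraries. In the homozygous apex 11 of 12 leukocyte genes were higher, with sums of 71.0 to 246 in wild-type against 167 to 449 in homozygous samples, and in the middle turn 10 of 12 were, with sums of 173 to 269 against 358 to 5000 in the same order. In the base 1 of 12 was higher, with sums of 442 to 1942 against 185 to 270, wild-type first. The median of the 12 was 0.67 in the middle turn, and 0.0717 without homozygous middle repeat 1. With Tie1 the leukocyte mean had an r of 0.603. The part of leukocytes in the levels of Pecam1 and Tie1 was not tested.

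Separation between 2 and 2 libraries was common among all genes and is no result by itself. In the apex 6 of the 10 genes were higher without overlap (Pecam1, Tie1, Cldn5, Slc2a1, Rgs5 and Cspg4), beside 26.9% of all genes, and 2 were lower (Tek and Emcn), beside 32.1%. In the middle turn 4 were higher (Pecam1, Kdr, Tie1 and Emcn), beside 31.3%, and none was lower, beside 28.2%. In the base none was higher, beside 26.2%, and 4 were lower (Tek, Emcn, Pdgfrb and Rgs5), beside 27.8%.

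Differences of the genotype effect between turns were not called for genes other than Emcn. Between base and apex all 10 genes had a more negative effect in the base, 0 were called by limma and 0.796% of all genes were. Pecam1 and Slc2a1 had an unadjusted p under 0.05, that is 2 of 10, beside 28.4% of all genes. The effect on Pecam1 differed by -1.14 (SE 0.33, limma adjusted p = 0.0558) and that on Slc2a1 by -1.32 (SE 0.42, limma adjusted p = 0.0749). Between base and middle turn Pecam1 differed by -1.06 (SE 0.33, limma adjusted p = 0.0493). Between middle turn and apex 0 of the 10 genes (1 at an unadjusted p under 0.05, Emcn at 1.87, SE 0.36, limma adjusted p = 0.249) and 0% of all genes were called, and 8.05% of all genes had an unadjusted p under 0.05.

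Along the wild-type cochlea 8 of the 10 genes, all but Kdr and Emcn, had their lowest mean in the apex. Between apex and base 0 were called, beside 0.0863% of all genes, and 4 had an unadjusted limma p under 0.05, beside 20.3%. Between apex and middle turn 0 were called, beside 0.0863%, and 6 had an unadjusted limma p under 0.05, beside 19.9%. Pecam1 had means of 3.03 scaled FPKM in the apex and 7.70 in the base, without a call (log2 fold change 1.09, SE 0.23, n = 2 against 2, limma adjusted p = 0.068), and Rgs5 was 24.9 in the apex and 53.0 in the middle turn (log2 fold change 1.07, SE 0.29, limma adjusted p = 0.142). Of 26 other pan-endothelial genes, 24 were higher in the wild-type base than in the apex (median 0.59) and 24 in the middle turn (0.57). In other vascular lists the genes higher in the wild-type base than in the apex were 14 of 25 for the barrier, 14 of 20 for pericytes, 4 of 9 for arteries, 3 of 6 for veins and 4 of 10 for smooth muscle. Between the wild-type base and middle turn 0 of the 10 were called and 0 had an unadjusted limma p under 0.05, beside 0% and 15.2% of all genes.

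In homozygous mice both middle turn libraries were above those of the other turns for Pecam1, Tek and Tie1. Between middle turn and apex 8 of the 10 genes were higher in the middle turn, with 0 called by limma beside 0% of all genes, and 3 at an unadjusted p under 0.05 beside 2.65%. Between base and middle turn all 10 were lower in the base, Pecam1 with a log2 fold change of -0.87 (SE 0.23, limma adjusted p = 0.0337) among those not called, and 3 of 26 other pan-endothelial genes were higher there (median -0.50). Between base and apex 3 of the 10 were higher in the base.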

How the data were processed

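RNA was isolated by the authors with a miRNeasy Micro Kit and made into VAHTS Universal V8 libraries for paired-end reads on a NovaSeq. Reads went through fastp 0.20.0 for trimming. The authors aligned them to mm10 with STAR 2.7.3a, and used only uniquely mapped reads to obtain FPKM from StringTie 2.0. The deposited table of FPKM was the only file used here. It keeps no read counts, so neither depth nor counting error is known, and precision rests on how far repeats differ. The FPKM of a library summed to 316425 to 408162. The annotation version is not given in the sources used here. Identifiers, starts and ends of the 10 genes equal those of GENCODE vM21.

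Libraries were scaled by median-of-ratios factors, taken over 11552 genes that reached 1 FPKM throughout. Genes that reached 1 FPKM in 2 libraries (16215) entered limma 3.58.1, run in R 4.3.3 on the log2 of scaled FPKM plus a pseudocount of 1, with a mean for each of the 6 groups, eBayes with a trend, two-sided, and Benjamini-Hochberg adjustment over all genes tested. Fold changes on this scale understate those of low genes. The script was tested on simulated data. Members and lists were chosen with earlier results of these data known. The text names all 10 genes, Gjb2, genes of a list called between genotypes or among its highest, and the 5 genes nearest in course, and others where it says so. Cdh5, Vegfa, Pdgfb, Angpt1 and Angpt2 were named after their values were seen. Alternatives varied the pseudocount, filter, scaling, libraries fitted, weights, trend, block and thresholds.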

Additional observations from a re-analysis of the deposited data

Results flagged for a closer look

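Emcn was singled out because its genotype effect differed between turns by a test of the difference itself. The effect was -1.59 in the basal turn and 0.90 in the middle turn on the log2 scale, a difference of -2.49 (SE 0.36, limma adjusted p = 0.00328). Both homozygous libraries were lower in the base and both were higher in the middle turn. The difference kept its sign under all 26 alternatives and its call under 21 of them. Neuronal and Schwann cell genes changed between these turns in the direction opposite to Emcn, and their part was not tested. With 2 libraries in each group, no search for a library that stands apart from its group was possible. Repeats were not equally close. The SD of their log2 difference over tested genes was 0.317 in the wild-type apex and 0.817 in the wild-type base. The limma p-values rest on a spread shared by all 6 groups.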

How the results depend on the processing

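Emcn was the only gene of the 10 called in the basal turn, between the genotype effects of base and middle turn, and between the homozygous base and each other turn. Each of these counts of 1 became 0 with no filter on low values and when only the libraries compared were fitted, and the basal count also with equal sums or library weights, where Emcn was still lower. Library weights raised the count between the wild-type middle turn and apex from 0 to 1. At an adjusted p under 0.05 that count and the one between the wild-type base and apex were 1, and the one between the effects of base and middle turn was 2. With 1 library left out, counts ranged from 0 to 1. The medians of the 10 genes ranged from 0.27 to 0.72 in the apex, 0.16 to 0.43 in the middle turn and -0.49 to -0.0497 in the base. With a filter of 5 FPKM, which drops Tie1 and Cspg4, the medians were 0.19 in the apex and 0.10 in the middle turn, and with equal sums the middle one was 0.50. Without Emcn, left out after its values were seen, they were 0.61, 0.17 and -0.22. Calls over all genes in the base ranged from 0, with the libraries compared only, to 1954, at an adjusted p under 0.05, against 696. With library weights they were 22.

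Signs turned only for differences that were not called. Pdgfrb in the middle turn was 0.12 as deposited and 0.068 with equal sums, and the mean of Rgs5 over the turns was 0.040 as deposited and 0.00151 with quantile normalization. With 1 library left out, differences crossed 0 for Kdr (apex -0.44 to 0.030, base -0.64 to 0.088, mean -0.068 to 0.17), Pdgfrb (apex -0.27 to 0.17, middle -0.14 to 0.041), Cldn5 (middle -0.22 to 0.27, base -0.27 to 0.43), Slc2a1 (middle -0.077 to 0.41, base -0.63 to 0.048), Rgs5 (middle -0.63 to 0.040, mean -0.14 to 0.082), Pecam1 (base -0.43 to 0.14) and Cspg4 (base -0.032 to 0.82). The causes were not tested.

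Same-numbered libraries of the 2 genotypes correlated in their deviations from group means at -0.07 in the apex, -0.01 in the middle turn and 0.21 in the base, so the numbers were not taken to pair the samples. With a replicate block, the count of the 10 genes called in the base stayed at 1, and no other count changed. With 2 libraries a group and unknown depth, differences of the size seen for Pecam1, Tie1 and Tek were not separated from the spread between repeats at the threshold used, which does not show that they are absent.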

Other observations

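Calls in further vascular lists stand beside the shares over all tested genes. Those were 4.29% between genotypes in the base and 8.91% between the genotype effects of base and middle turn. Of 9 tested arterial genes, 7 were higher in the homozygous apex, 7 in the middle turn and 5 in the base, where Hey2, a Notch target, was called higher (means of 12.4 against 3.09 scaled FPKM, log2 fold change 1.72, SE 0.23, n = 2 against 2, limma adjusted p = 0.00505). Of 6 venous genes, 3, 3 and 1 were higher in turn (median log2 fold changes of 0.13, 0.17 and -0.67), with none called. Of 4 lymphatic genes, 2 were higher in each turn, and Reln was called higher in the base (5.65 against 1.10, log2 fold change 1.67, SE 0.26, limma adjusted p = 0.00679). Ecscr, a surface protein of endothelial cells, was the only other pan-endothelial gene whose genotype effect differed between base and middle turn, by 2.01 (SE 0.39, limma adjusted p = 0.00828), with means of 13.5 and 5.01 in the homozygous base and middle turn and 6.03 and 11.0 in wild-type.

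Several lists of other cells had larger medians than the vascular lists in single turns. Neuronal genes were lower in the homozygous middle turn (10 of 10, median log2 fold change -3.54) and higher in the base (10 of 10, median 4.36). The basal median was 1.80 without wild-type basal repeat 1 and 7.07 without wild-type basal repeat 2, whose mean log2 values of the list were 1.30 and 5.77, against 7.59 and 7.62 in homozygous libraries. The middle median was -2.11 without homozygous middle repeat 2. These values without a library were computed after seeing the data. Schwann cell genes were lower in the middle turn (9 of 9, median -2.50) and higher in the base (8 of 9, median 2.25). Strial genes were higher in the homozygous apex (8 of 9, median 1.71) and middle turn (9 of 9, median 1.43). Erythroid genes were lower in the homozygous base (7 of 7, median -2.89), where they summed to 436 to 524, against 3180 to 4994 in wild-type. Of 4 platelet genes, 3, 4 and 0 were higher in the apex, middle turn and base, but 2 in the middle turn without homozygous middle repeat 1 and 2 in the base without wild-type basal repeat 2. Their part in the levels of the vascular genes was not tested.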
